A study of Mus musculus with 7 samples.

Results

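The nuclear genes for the subunits of respiratory complexes II, III, IV and V, with the genes for cytochrome c and cytochrome c1, were examined in dorsal skin of aged mice after topical ABT-263. Members were protein-coding genes whose symbol is Sdha, Sdhb, Sdhc, Sdhd, Cyc1 or Cycs, or starts with Uqcr, Cox4i, Cox5, Cox6, Cox7, Cox8 or Atp5. Pseudogenes and copies marked -ps were left out. By this rule 50 of the 55450 identifiers in the count table were members, of which 4 belong to complex II, 10 to complex III with cytochrome c, 18 to complex IV and 18 to complex V.

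These complexes sit in the inner mitochondrial membrane. Complex II (succinate dehydrogenase) passes electrons from succinate to ubiquinone, complex III hands them to the mobile carrier cytochrome c, complex IV (cytochrome c oxidase) delivers them to oxygen, and complex V (ATP synthase) uses the resulting proton gradient to make ATP. Several complex IV subunits exist as isoforms, among them a heart and skeletal muscle form and a form found in most tissues. A few core subunits of complexes III, IV and V are encoded in mitochondrial DNA, and the authors left mitochondrial genes out of their counts, so those subunits were not analysed here.

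All 7 samples were skin of wild type C57BL/6 male mice aged 24 months, with 1 library per mouse. ABT-263 inhibits anti-apoptotic Bcl-2 proteins and is used as a senolytic, a drug that removes senescent cells. Mice 476, 477 and 478 received 5 μM ABT-263 on depilated dorsal skin under a semi-occlusive dressing for 5 days, and mice 480, 481, 482 and 483 received the vehicle DMSO in the same way. Total counts lay between 20344364 and 26824123 in the DMSO group and between 27325963 and 43562330 in the ABT-263 group, so every ABT-263 library was the deeper. Levels are given as CPM (counts scaled to a common library size) after TMM normalization, which adjusts library sizes for differences in composition, and each list of levels follows the order of the mouse numbers.

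Of the 50 members, 47 had enough counts to be tested among 17959 genes. After ABT-263, 24 of the 47 were lower at an adjusted p under 0.05 in edgeR's quasi-likelihood test and 0 were higher, whereas over all genes tested 11.7% were called lower and 12.4% higher. At an unadjusted p under 0.05, 31 members were lower and 2 higher (Cox7b and Atp5j), and the DESeq2 Wald test called 1 member higher, Atp5j. The median log2 fold change (ABT-263 over DMSO) of the members was -0.645, against 0.00 over all genes tested, and 41 of the 47 values were negative. In 28 members every ABT-263 mouse lay below every DMSO mouse, which held for 18.4% of all genes tested, and in 3 members every ABT-263 mouse lay above, against 18.7% of all genes.

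**Figure D1:**
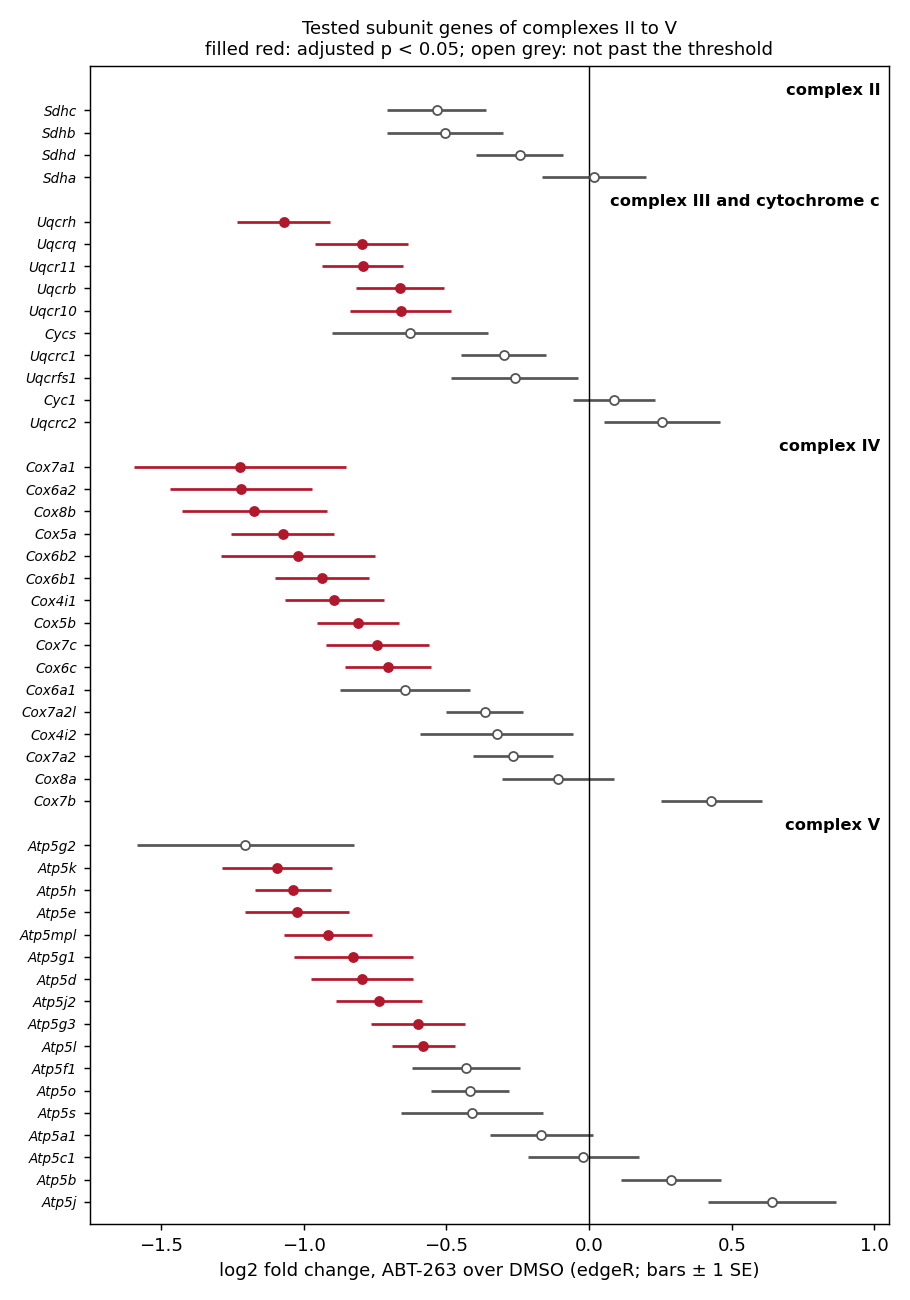
Log2 fold change of each of the 47 tested subunit genes (horizontal axis, ABT-263 over DMSO, edgeR, bars 1 SE) by complex, with genes called at an adjusted p under 0.05 in filled red and the others in open grey. All 24 filled points lie to the left of 0, while Sdha, Cyc1, Uqcrc2, Cox7b, Atp5b and Atp5j lie to the right of 0 as open points.

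The count of members called depended on single mice. It was 12 without mouse 478, 14 without mouse 476 or mouse 482, 15 without mouse 483 and 29 without mouse 480, whose levels were often the lowest of the DMSO group. Calls over all genes fell as well, from 2108 lower of 17959 with all mice to 771 of 18481 without mouse 478. They were 1112, 974 and 1075 without mouse 476, 482 or 483, and 2104 of 17738 without mouse 480. Over all 17 alternative analyses, 11 members were called lower every time, namely Uqcrh and Uqcr11 of complex III, Cox4i1, Cox5a, Cox5b and Cox6b1 of complex IV, and Atp5e, Atp5h, Atp5k, Atp5l and Atp5mpl of complex V. Summed over all members, the level lay between 14975 and 18756 CPM in DMSO mice and between 11709 and 12176 CPM in ABT-263 mice, without overlap. The groups were also apart in the median over members of log2(CPM + 1) minus the DMSO mean, which was -0.24, -0.02, 0.13 and 0.12 in mice 480 to 483 and -0.66, -0.58 and -0.69 in mice 476 to 478.

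Complex II was the smallest group, and 0 of its 4 genes passed the test in the fit to all mice, with a median log2 fold change of -0.37. Sdhc, a membrane anchor of the complex, stood at 234, 305, 331 and 359.8 CPM in the DMSO mice and at 199.5, 213 and 224 CPM in the ABT-263 mice. All 3 ABT-263 mice were below the DMSO mice, yet the difference narrowly missed the threshold (log2 fold change -0.53, SE 0.17, edgeR adjusted p = 0.0561). Sdhb, the iron-sulfur subunit, was measured at 164, 259, 245 and 289.7 CPM against 171, 154 and 183 CPM (log2 fold change -0.50, SE 0.20, edgeR adjusted p = 0.103). Here mouse 480 alone among the DMSO mice lay within the ABT-263 range. Without mouse 480, Sdhc and Sdhb were both called lower, at edgeR adjusted p of 0.0204 and 0.0213.

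The other membrane anchor, Sdhd, had 136, 172, 195 and 189 CPM in DMSO mice and 149, 143 and 147 CPM in ABT-263 mice (log2 fold change -0.24, SE 0.15, edgeR adjusted p = 0.264). Sdha, the flavoprotein that oxidizes succinate, had 218, 324, 304 and 307 CPM against 276, 264 and 336 CPM. Its group means of 288 ± 48.0 (SD, n = 4) and 292 ± 39.1 CPM (SD, n = 3) differed by less than the spread between mice (log2 fold change 0.02, SE 0.18, edgeR adjusted p = 0.953), and the sign of this small value turned under 5 of the alternatives.

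In complex III with cytochrome c, 5 of 10 genes were called lower and the median log2 fold change was -0.64. The 5 were Uqcrh, Uqcrq, Uqcr11, Uqcrb and Uqcr10, all of them small supernumerary subunits that surround the catalytic core. Uqcrh, the hinge protein that contacts cytochrome c1, had 519, 567, 637 and 621 CPM in DMSO mice and 292, 304 and 241 CPM in ABT-263 mice. The highest ABT-263 mouse thus stood well under the lowest DMSO mouse, and the ABT-263 mean was 47.6% of the DMSO mean (log2 fold change -1.07, SE 0.16, edgeR adjusted p = 0.00728). Uqcrq, a subunit next to cytochrome b, had 576, 583, 739.6 and 713 CPM against 376, 383 and 369 CPM (log2 fold change -0.80, SE 0.16, edgeR adjusted p = 0.0146). For Uqcr11 the values were 212, 214, 269 and 236 CPM against 136, 143 and 124 CPM (log2 fold change -0.79, SE 0.14, edgeR adjusted p = 0.0103). Neither gene's groups overlapped. Uqcrb and Uqcr10 had smaller differences, both with a log2 fold change of -0.66. The count in complex III was 2 without mouse 478, where Uqcrq missed the threshold (edgeR adjusted p = 0.0522), and 3 without mouse 476, 482 or 483.

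None of the electron-carrying and core subunits of complex III was called, and their difference from the small subunits was not tested. Cyc1, cytochrome c1, had 194, 224, 223 and 247 CPM in DMSO mice and 217, 227 and 264 CPM in ABT-263 mice, with overlapping groups (log2 fold change 0.09, SE 0.14, edgeR adjusted p = 0.678). Uqcrc2, a core protein, had 118, 182, 177 and 183 CPM against 178, 171 and 242 CPM (log2 fold change 0.26, SE 0.20, edgeR adjusted p = 0.376). Mouse 480 was the low value of the DMSO group and mouse 478 the high value of the ABT-263 group. The other core protein, Uqcrc1, and the Rieske iron-sulfur protein Uqcrfs1 had log2 fold changes of -0.30 and -0.26. For Uqcrc1 every ABT-263 mouse lay below every DMSO mouse, as for the small subunits.

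Cycs, the gene for somatic cytochrome c, was listed at low levels of 6.55, 9.19, 12.5 and 13.1 CPM in DMSO mice and 7.72, 5.47 and 6.90 CPM in ABT-263 mice. Mouse 480 fell inside the ABT-263 range, and the difference was not called with all mice (log2 fold change -0.63, SE 0.27, edgeR adjusted p = 0.123) but was without mouse 480 (adjusted p = 0.0422). Only uniquely aligned reads were counted, and 28.2% of the 50-base words of the Cycs transcripts also occur in other genes, 42 in number, so its level is uncertain.

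In complex IV, 10 of the 16 genes tested were lower, with a median log2 fold change of -0.78. The count was 6 without mouse 476, 482 or 483 and 5 without mouse 478. The difference in share between complexes was not tested, and the order of complexes IV and V turned with the setting, with 10 of 16 against 9 of 17 genes in the fit to all mice, 8 against 10 with length and GC trends removed, and 10 against 11 with the DESeq2 Wald test or without mouse 480. Cox4i1, a ubiquitous subunit that contacts the catalytic core, had the highest level per length of all members, with mean levels of 2377 CPM per kb of exon in DMSO mice and 1281 in ABT-263 mice. Its CPM values were 1784, 1699, 1901 and 1889.8 against 967, 1067 and 905. The groups lay far apart and the ABT-263 mean was 53.9% of the DMSO mean (log2 fold change -0.89, SE 0.17, edgeR adjusted p = 0.0130). Cox5a and Cox5b, which flank the catalytic core on its matrix side, and Cox6b1, on the intermembrane side, were lower too, with log2 fold changes of -1.07, -0.81 and -0.94. Cox6c (-0.71) and Cox7c (-0.74) completed the ubiquitous subunits called.

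Against this direction, Cox7b, an X-linked subunit, had 116, 153, 173 and 173 CPM in DMSO mice and 212, 178 and 231 CPM in ABT-263 mice. Every ABT-263 mouse lay above every DMSO mouse, but the difference did not pass the test over all genes (log2 fold change 0.43, SE 0.18, edgeR adjusted p = 0.112). Cox7a2l, which takes part in joining complexes III and IV into supercomplexes, and Cox4i2, the isoform linked to lung and low oxygen, had log2 fold changes of -0.37 and -0.32 and were not called. Of the testis isoforms, Cox6b2 was present at 8.10, 11.0, 6.00 and 12.6 CPM in DMSO mice and 4.61, 4.64 and 4.68 CPM in ABT-263 mice and was lower (log2 fold change -1.02, SE 0.27, edgeR adjusted p = 0.0306). Cox8c had 2 counts in mouse 480 and 0 in the other mice, and Cox7b2 had 0 counts in all 7.

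The 3 muscle isoforms of complex IV had the lowest log2 fold changes of that complex, and their ubiquitous counterparts were not called. Cox6a2 (chr7:128205435-128206387 on GRCm38) had 351, 535, 609 and 736 CPM in DMSO mice and 253, 225 and 242 CPM in ABT-263 mice. The groups did not overlap and mouse 480 was the lowest of its group (log2 fold change -1.22, SE 0.25, edgeR adjusted p = 0.0146, and 0.0522 without mouse 478). Its counterpart Cox6a1 (chr5:115345642-115348981) had 499, 288, 412 and 405 CPM against 248, 315 and 206 CPM (log2 fold change -0.65, SE 0.23, edgeR adjusted p = 0.0717, and 0.0464 without mouse 481). Here mouse 480 was instead the highest DMSO mouse.

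Cox7a1 (chr7:30184144-30186078), the muscle form of the second pair, had 52.0, 145, 126 and 143 CPM in DMSO mice and 37.4, 45.9 and 66.4 CPM in ABT-263 mice. Mouse 480 lay among the ABT-263 mice, and Cox7a1 was the only member called lower whose groups overlapped (log2 fold change -1.22, SE 0.37, edgeR adjusted p = 0.0483). Its adjusted p was above the threshold in each fit that left out a mouse other than 480, up to 0.151 without mouse 476. Cox7a2 (chr9:79755361-79759878) had 174, 152, 191 and 192 CPM against 150.5, 159 and 134 CPM (log2 fold change -0.27, SE 0.14, edgeR adjusted p = 0.192).

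For the third pair, Cox8b (chr7:140898945-140900446) had 205, 332, 366 and 418 CPM in DMSO mice and 144, 123 and 172 CPM in ABT-263 mice, without overlap (log2 fold change -1.17, SE 0.26, edgeR adjusted p = 0.0173, and 0.0515 without mouse 482). Cox8a (chr19:7215153-7217616) had 292, 175, 204 and 237 CPM against 204, 239.6 and 187 CPM, largely the same range (log2 fold change -0.11, SE 0.20, edgeR adjusted p = 0.710). Its sign turned to 0.078 with trends on length and GC content removed and to 0.032 without mouse 480.

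**Figure D2:**
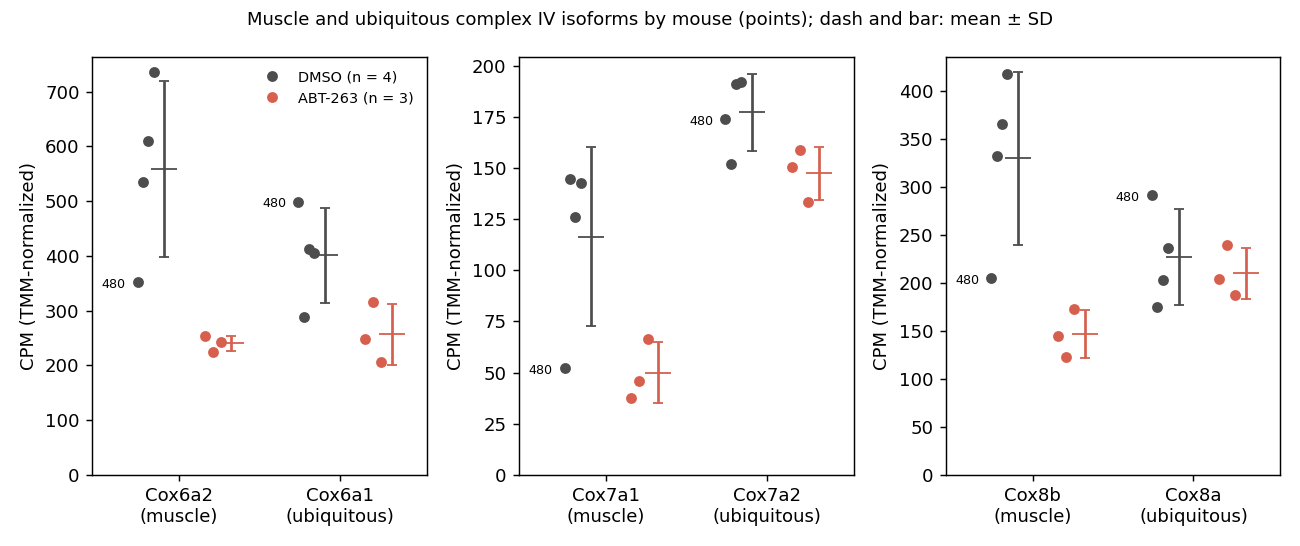
TMM-normalized CPM of the muscle and ubiquitous isoform of 3 complex IV subunits in each mouse (points), with the mean and SD of the 4 DMSO mice (grey) and 3 ABT-263 mice (red). In mouse 480, marked by its number, the muscle isoforms were the lowest of the DMSO group, with Cox7a1 at 52.0 CPM, while Cox6a1 and Cox8a were the highest at 499 and 292 CPM.

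Whether the muscle isoform differed more than its counterpart was tested within each mouse as the log2 ratio of the pair. The log2 ratio of Cox8b to Cox8a was -0.51, 0.92, 0.84 and 0.81 in DMSO mice and -0.50, -0.96 and -0.12 in ABT-263 mice, a difference in means of -1.04 (two-sided exact permutation p = 0.114, 0.214 after Benjamini-Hochberg adjustment over 3 ratios). Mouse 480 was again inside the ABT-263 range while the other DMSO mice were above it. The log2 ratio of Cox7a1 to Cox7a2 differed by -0.88 (exact permutation p = 0.143, adjusted 0.214) and that of Cox6a2 to Cox6a1 by -0.53 (exact permutation p = 0.286, adjusted 0.286). With 4 mice against 3, this test cannot give a p below 0.0286. All 3 ratios were lower after ABT-263 on average, overlapped between the groups and were not distinguishable from the spread between mice. Without mouse 480 the differences were -0.85 for the Cox6a pair, -1.22 for the Cox7a pair and -1.38 for the Cox8 pair.

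The muscle isoforms are expressed in striated muscle, and skeletal muscle markers were abundant in these skin samples, as mouse dorsal skin carries a thin muscle sheet. The summed level of 20 skeletal muscle markers was 50753, 84776, 73515 and 98193 CPM in mice 480 to 483 and 46087, 37030 and 51343 CPM in mice 476 to 478. In that sum too, mouse 480 lay inside the ABT-263 range. Of the 20 markers, 7 (35%) were lower and 0 higher, against 11.7% and 12.4% of all genes tested, at a median of -0.61 (log2). The lowest p belonged to Pvalb (parvalbumin, -3.33) and Casq1 (calsequestrin, -1.44). The markers did not all go the same way, with 17 values negative and 3 positive (Myh7 0.48, Neb 0.39 and Myl1 0.29, not called). The abundant Acta1 (-0.43) and Atp2a1 (-0.36) were not called either. The count of 7 became 3 without mouse 476, 477, 478, 482 or 483 and 4 without mouse 481. In bulk tissue, fewer cells of a type and less RNA per cell cannot be told apart. The part of muscle content in the members' values was not tested. In mouse 480 the summed level of all members was 14975 CPM, and in the highest ABT-263 mouse it was 12176 CPM.

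Markers of other cells also differed between the groups. The summed levels of 6 endothelial, 6 macrophage and 6 neutrophil markers were higher in every ABT-263 mouse than in every DMSO mouse, at 443 to 584 against 134 to 299 CPM, 905 to 2324 against 286 to 862 CPM, and 5097 to 8318 against 99.8 to 1820 CPM. Fibroblast markers summed to 6004 to 8570 CPM against 3798 to 5304 CPM. Of 5 brown fat markers, the defining gene Ucp1 was at or near 0 in all mice, and the 4 others had log2 fold changes of -1.22 (Dio2, called lower), -0.73 (Ppargc1a), -0.44 (Cidea) and -0.39 (Elovl3), with a median of -0.59. The brown fat marker sum lay between 299.9 and 699 CPM in DMSO mice and between 292 and 559 CPM in ABT-263 mice. Most of it was Elovl3, which is also on the sebaceous gland list, with a DMSO mean of 396.7 CPM in a sum of 575.5 CPM. Basal keratinocyte markers, which define the labelled tissue, were abundant at 18137 to 31151 CPM in DMSO mice and 13785 to 35815 CPM in ABT-263 mice. Their sums, and those of suprabasal and sebaceous gland markers, overlapped between the groups, and hair follicle marker sums ranged from 42.4 to 2329 CPM in DMSO mice alone. The part of these cell types in the members' values was not tested.

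In complex V, 9 of the 17 genes tested were lower and 0 higher, the median being -0.60 on the log2 scale, and the count was 5 without mouse 476, 478 or 482. Atp5h (subunit d of the peripheral stalk) had the smallest adjusted p of all members, with 142, 131, 156 and 147 CPM in DMSO mice and 67.7, 79.0 and 63.9 CPM in ABT-263 mice. The spread within each group was small beside the gap between them (log2 fold change -1.04, SE 0.13, edgeR adjusted p = 0.00622). Atp5k, subunit e of the membrane part where ATP synthase dimers form, had 380.5, 351, 481 and 437 CPM against 183, 236 and 160.5 CPM (log2 fold change -1.09, SE 0.19, edgeR adjusted p = 0.00987). Atp5e, the epsilon subunit of the central stalk, had the highest level per length in complex V, with means of 1737 and 854 CPM per kb of exon. In CPM it had 592, 704, 851 and 779 against 397, 352 and 330.4 (log2 fold change -1.02, SE 0.18, edgeR adjusted p = 0.0101). For these 3 genes the ABT-263 means were 48.8%, 46.8% and 49.2% of the DMSO means.

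The subunits that do the catalytic work of complex V gave other values. Atp5b, the catalytic beta subunit, had 1002, 1194, 1250.2 and 1228 CPM in DMSO mice and 1349.9, 1359 and 1571 CPM in ABT-263 mice. All ABT-263 mice were above all DMSO mice, and the difference did not pass the test (log2 fold change 0.29, SE 0.18, edgeR adjusted p = 0.256). The alpha subunit Atp5a1 and the gamma subunit Atp5c1 had log2 fold changes of -0.17 and -0.02. Atp5j, coupling factor F6 of the peripheral stalk, had the highest log2 fold change of all members, with 74.1, 133, 126 and 123 CPM against 177, 146 and 210.0 CPM (0.64, SE 0.22, edgeR adjusted p = 0.0683). The other stalk subunits, Atp5f1 (b) and Atp5o (OSCP), had values of -0.43 and -0.42 and were not called.

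The proton-carrying c-ring is built from 1 protein encoded by 3 genes. Atp5g1 and Atp5g3 were lower, with log2 fold changes of -0.83 and -0.60. Atp5g2 was listed at 1.6, 2.82, 1.90 and 3.53 CPM in DMSO mice and 1.07, 1.36 and 0.773 CPM in ABT-263 mice, and narrowly missed the threshold (log2 fold change -1.21, SE 0.38, edgeR adjusted p = 0.0512, and 0.0386 without mouse 480). Of the 50-base words of the Atp5g2 transcripts, 87.4% occur in other genes as well, so its low unique count is uncertain. The same holds in part for Atp5l (68.5%), Atp5h (47.9%) and Uqcrb (43.2%), while 26 of the 50 members share no such word. A second identifier named Atp5o, a readthrough locus that overlaps the first, had 0 counts in every mouse.

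Grouped by role, the share of genes called lower differed between groups. Most members lie outside the catalytic or core groups, and so did the genes called. These role groups were drawn up after the values had been seen, so their counts are descriptions. Among the members, all 5 small complex III subunits, all 4 small membrane subunits of complex V and both the delta and epsilon subunits were lower. Their median log2 fold changes were -0.79, -0.83 and -0.91. Without mouse 478 these counts were 2, 3 and 1. Usmg5, a small subunit of complex V that the symbol rule does not catch, is outside these counts. It had a log2 fold change of 0.05 (edgeR adjusted p = 0.865). The 3 muscle isoforms of complex IV and 2 of 3 c-ring genes were lower as well. Other groups outside the core were called in part or not at all. Lower were 6 of 9 other complex IV subunits, 1 of 4 peripheral stalk subunits, 0 of 3 ubiquitous isoform counterparts and 0 of 2 membrane anchors of complex II. Of the 6 catalytic or core subunits of complexes II and III, 0 were called and the median was -0.12. Of the alpha, beta and gamma subunits of complex V, 0 of 3 were called with a median of -0.02. Summed, these 3 subunits stood at 2192 to 2837 CPM in DMSO mice and 2589 to 3019 CPM in ABT-263 mice. The sum of the delta and epsilon subunits stood at 1324 to 1659 CPM and 715 to 847 CPM.

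**Figure D3:**
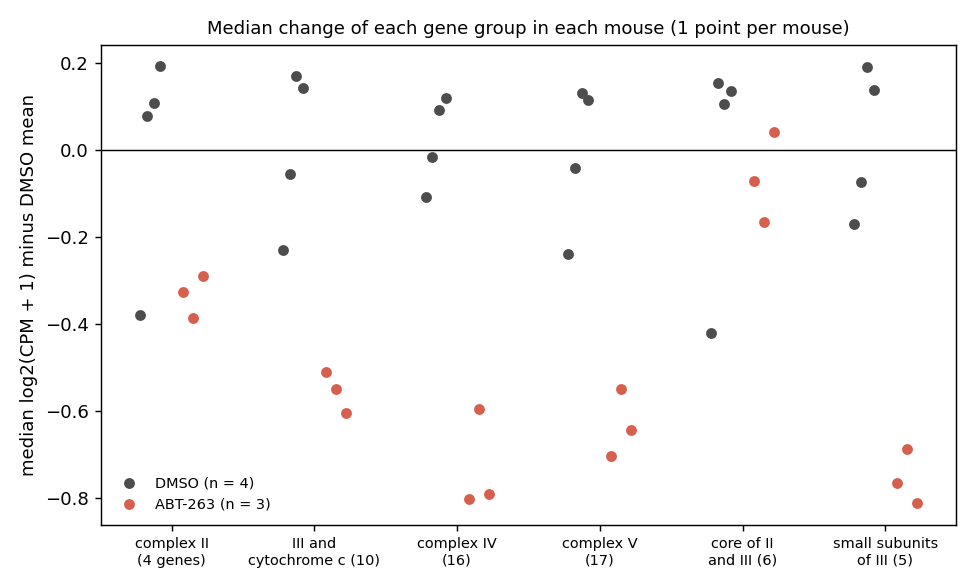
Median over the genes of each group of log2(CPM + 1) minus the DMSO mean (vertical axis), with 1 point per mouse, DMSO in grey and ABT-263 in red. The ABT-263 mice lie below all DMSO mice for complexes III, IV and V and for the small subunits of complex III, and overlap with the DMSO mice for complex II and for the core subunits of complexes II and III, where mouse 480 is the lowest point at -0.42.

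The subunits that were lower also tended to have a short exon length, which joins the exons of all coding transcripts of a gene. Of the 24 tested members with up to 1000 bases of exon, 18 were lower (median log2 fold change -0.90), and of the 23 longer members 6 were lower, with a median of -0.37. Without mouse 478 these counts were 12 and 0, and without mouse 480 they were 19 and 10. Over all tested protein-coding genes, 24.0% of those up to 1000 bases were lower (172 of 716, median -0.36) and 9.64% of those over 1000 bases (1349 of 13987, median 0.05). Across the 47 members, the log2 fold change and the log10 exon length had a Pearson correlation of 0.47 and a Spearman correlation of 0.55, given as a description, since the genes share the same 7 libraries. Over all 14703 protein-coding genes tested the Spearman correlation was 0.06. With smooth trends on length and GC content removed from each library, 23 members were called lower, 20 of them among the 24. The Spearman correlation with exon length over the members was then 0.44. The trend removed was on the length of each gene's longest transcript, which is not the exon length used in the groups and correlations. Among the members over 1000 bases of exon that were called lower, Cox6c, Cox7c and Atp5j2 had longest coding transcripts of 738, 709 and 955 bases. That of Atp5j, also over 1000 bases of exon and not called, was 809 bases. Why the values of the subunits went together with exon length was not tested.

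**Figure D4:**
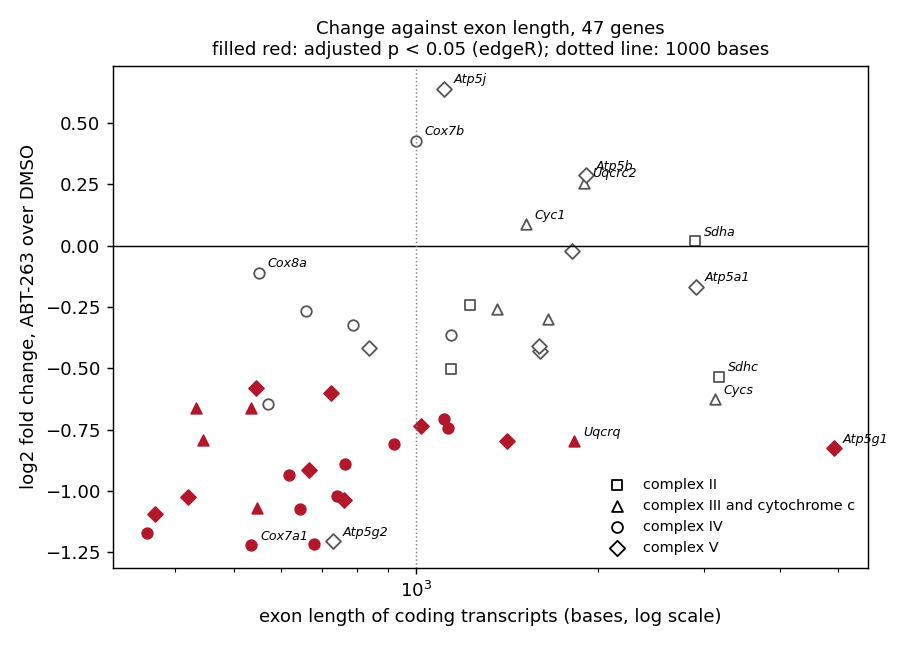
Log2 fold change of the 47 tested genes (vertical axis, ABT-263 over DMSO) against exon length (horizontal log axis, bases), with symbols for the complexes and filled red for an adjusted p under 0.05. To the left of the dotted line at 1000 bases 18 of 24 points are filled, and to its right 6 of 23 are filled.

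Promoters are shown for 4 members called lower in every analysis (Uqcrh, Atp5l, Uqcr11, Cox5a), for ubiquitous isoforms (Cox6a1, Cox7a2) and for muscle isoforms (Cox7a1, Cox8b), so that their letters can be set side by side. They were chosen with the matches in view, to show promoters with and without a match, and their number with a match says nothing of the groups. Nuclear respiratory factor 1 (NRF1) and the ETS factor GABPA, known as NRF2 in this field, bind the promoters of many respiratory genes. Each line gives the 250 bases before the RefSeq start on GRCm38.p6, 5′ to 3′ on the gene's strand, with capitals marking an NRF1 word (GCGCATGCG) or an ETS word (CCGGAAG) on either strand.
Uqcrh (chr4:116075071-116075320, minus strand): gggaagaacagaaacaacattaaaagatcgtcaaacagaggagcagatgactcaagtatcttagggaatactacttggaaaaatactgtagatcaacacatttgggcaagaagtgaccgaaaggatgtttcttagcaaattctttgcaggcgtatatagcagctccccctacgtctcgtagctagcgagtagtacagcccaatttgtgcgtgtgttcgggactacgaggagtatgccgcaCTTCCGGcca
Atp5l (chr9:44920743-44920992, minus strand): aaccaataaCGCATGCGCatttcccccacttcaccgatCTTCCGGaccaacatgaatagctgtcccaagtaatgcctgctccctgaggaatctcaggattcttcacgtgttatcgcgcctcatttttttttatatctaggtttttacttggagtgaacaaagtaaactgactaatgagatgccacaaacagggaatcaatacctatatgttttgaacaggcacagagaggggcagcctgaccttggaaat
Uqcr11 (chr10:80406822-80407071, minus strand): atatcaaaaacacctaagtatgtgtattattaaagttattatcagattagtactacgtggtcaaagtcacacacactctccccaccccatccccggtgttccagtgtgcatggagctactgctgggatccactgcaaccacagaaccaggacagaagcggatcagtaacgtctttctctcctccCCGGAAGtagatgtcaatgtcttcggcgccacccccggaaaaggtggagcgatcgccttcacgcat
Cox5a (chr9:57520982-57521231, plus strand): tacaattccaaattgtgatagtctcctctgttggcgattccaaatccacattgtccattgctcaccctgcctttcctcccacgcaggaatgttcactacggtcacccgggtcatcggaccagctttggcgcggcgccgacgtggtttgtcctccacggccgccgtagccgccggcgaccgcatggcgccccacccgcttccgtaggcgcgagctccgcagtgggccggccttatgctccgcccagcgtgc
Cox6a1 (chr5:115348959-115349208, minus strand): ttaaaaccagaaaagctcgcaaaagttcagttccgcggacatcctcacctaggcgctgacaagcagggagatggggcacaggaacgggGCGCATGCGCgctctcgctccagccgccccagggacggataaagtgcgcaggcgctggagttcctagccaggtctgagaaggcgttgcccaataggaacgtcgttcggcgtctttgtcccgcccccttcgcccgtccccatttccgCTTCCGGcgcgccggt
Cox7a2 (chr9:79759854-79760103, minus strand): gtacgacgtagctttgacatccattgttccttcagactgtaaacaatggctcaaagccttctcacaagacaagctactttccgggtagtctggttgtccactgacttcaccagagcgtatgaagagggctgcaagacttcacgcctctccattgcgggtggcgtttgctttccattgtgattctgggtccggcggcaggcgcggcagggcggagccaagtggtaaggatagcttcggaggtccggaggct
Cox7a1 (chr7:30183921-30184170, plus strand): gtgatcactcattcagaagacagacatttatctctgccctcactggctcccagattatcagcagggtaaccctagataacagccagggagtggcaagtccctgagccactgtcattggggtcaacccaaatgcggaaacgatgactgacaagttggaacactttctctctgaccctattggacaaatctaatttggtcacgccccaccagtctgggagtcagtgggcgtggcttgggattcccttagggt
Cox8b (chr7:140900447-140900696, minus strand): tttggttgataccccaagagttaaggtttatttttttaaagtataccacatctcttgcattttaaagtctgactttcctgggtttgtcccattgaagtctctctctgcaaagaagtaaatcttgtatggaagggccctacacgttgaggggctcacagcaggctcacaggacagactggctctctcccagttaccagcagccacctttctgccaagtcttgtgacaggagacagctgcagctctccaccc
The ETS word stands close to the start in Uqcrh and Cox6a1 and farther away in Uqcr11 and Atp5l. Atp5l and Cox6a1 hold an NRF1 word as well, and in Uqcr11 an NRF1 word runs across the start, where the printed bases end. Neither word is found in Cox5a, in the ubiquitous isoform Cox7a2 or in the muscle isoforms Cox7a1 and Cox8b, while Cox8a, not printed, holds the ETS word.

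RefSeq promoters were matched for 37 members, 40 promoters in all, each reaching from 250 bases before to 50 bases after the start. The other members, among them the muscle isoform Cox6a2 and Cox4i1, were not searched. Searched on both strands, the NRF1 word occurred in 7 of the 40 (17.5%), against 1.75% of all 32851 promoters, and the ETS word in 12 (30.0%), against 8.86%. The NRF1 word can match both strands at overlapping positions and was counted once per promoter. A YY1 word (AAGATGGCG) was found in 2 of the 40 (5.00%) against 1.40%, and an estrogen-related receptor word (TCAAGGTCA) in 2 (5.00%) against 0.423%. These shares rest on 2 promoters each, and their difference from all promoters was not tested. A MEF2 word (CTAAAAATA) was found in 0 of the 40 against 0.517%. The MEF2 word is too rare for 0 of 40 to set the members apart from all promoters. A match describes these letters alone.

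A list of 15 regulators of respiratory genes, DNA-binding factors and coactivators among them, was read from the same fit. Of the 15, 1 (6.67%) was lower and 3 were higher, where over all genes tested 11.7% were lower and 12.4% higher. The difference from those shares was not tested. Ppargc1b, a coactivator of respiratory genes, was the only regulator that was lower (log2 fold change -1.20, SE 0.15, edgeR adjusted p = 0.00622), with 18.2, 18.2, 22.0 and 22.1 CPM against 9.19, 9.10 and 8.08 CPM. Yy1 (0.61), Gabpa (0.80) and Gabpb1 (0.51) were higher, a count of 3 that was 1 without mouse 476, 478, 482 or 483, while Nrf1 had a log2 fold change of -0.17 and was not called. Of 35 assembly factors of complexes II to V, 11 (31.4%) were lower and 1 was higher, with a median of -0.27, against 11.7% and 12.4% of all genes tested. Without mouse 478 the counts were 6 and 0, in a fit that called 771 of 18481 genes lower and 964 higher. Cox14 and Cmc2, which act in the assembly of complex IV, had log2 fold changes of -0.91 and -1.09, and Cox15, which makes its heme a, had 0.90. Of 16 genes of mitochondrial mass and protein import, 0 were lower and 2 were higher, where 11.7% and 12.4% of all genes tested were. The 2 were the carrier Slc25a5 (0.77) and the import channel Timm23 (1.09). The median of the 16 was -0.21, and without mouse 480 the counts were 2 and 2.

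Complex I, the family most like these genes, was taken as the 38 protein-coding genes whose symbol starts with Nduf, without Ndufaf. This rule on symbols also takes in Ndufa4 and Ndufa4l2 (log2 fold changes -0.506 and -0.375, not called). Of the 38 genes, 27 (71.1%) were lower and 0 higher, against 11.7% and 12.4% of all genes tested. Without mouse 478 the count lower was 17, in a fit that called 771 of 18481 genes lower. The median log2 fold change was -0.68, against -0.645 for complexes II to V. The lowest p-values of the 38 belonged to Ndufa2 and Ndufa5, with log2 fold changes of -1.33 and -1.47. Summed, the 38 genes stood at 8797 to 11113 CPM in DMSO mice and 5779 to 6251 CPM in ABT-263 mice. The difference between the families was not tested.

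Processed pseudogenes, left out by the rule, carry near copies of the members' coding sequence. Of 8 such copies 6 were tested, and 4 were called lower, Uqcrh-ps1 (-1.03), Uqcrh-ps2 (-1.03), Cox6c2 (-0.60) and Atp5k-ps2 (-0.91), as were their parent genes, which had far higher levels. The other 2 were not called, Atp5l2-ps at -1.23 and Atp5c1-ps at 0.84, the latter beside a parent at -0.02, and Atp5l-ps1 and Atp5l-ps2 had too few counts. Reads shared between parent and copy cannot be assigned with certainty. Usmg5, a small subunit of complex V, and Atpif1, the inhibitor of ATP synthase, have symbols that the rule does not catch, and their log2 fold changes were 0.05 (edgeR adjusted p = 0.865) and -0.83 (edgeR adjusted p = 0.0329).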

How the data were processed

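Bulk RNA sequencing of skin from 7 mice was analysed. The authors aligned reads to mm10 with STAR 2.7.9a and counted uniquely aligned proper pairs on the same strand for Ensembl genes (build 109) with featureCounts of Subread 1.6.2, leaving out mitochondrial genes. The deposited table holds these counts without normalization. A second deposited table, made by the authors with DESeq2, gives each gene's variance-stabilized level (close to log2) and served as an alternative. Unique alignment lowers the counts of genes that have near copies elsewhere, and the deeper ABT-263 libraries give smaller counting error in that group.

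Of the 55450 identifiers, 55190 had a symbol, type, position and exon length in GENCODE M21 (GRCm38), a release other than the one the authors name. In R 4.3.3, genes kept by filterByExpr (17959) were compared with edgeR 4.0.16 (TMM, robust quasi-likelihood test, two-sided, all 7 mice, no covariates, Benjamini-Hochberg over all genes tested, threshold 0.05). The script was tested on simulated data. Fold changes of single genes, with their SE, come from this fit. Isoform ratios used log2((CPM + 1)/(CPM + 1)) and an exact two-sided permutation test over the 35 assignments of mice. The labels name no batch, and say no more of the mice than 1 number each, so p-values measure the spread between these libraries. Spearman correlations of counts across genes were 0.954 to 0.987 within and 0.881 to 0.974 between treatments, and no libraries of a group agreed within sampling noise.

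Alternatives were DESeq2 1.42.0 (Wald test, and its size factors in edgeR), upper-quartile scaling, total counts, every gene with a count, a minimum of 10 counts per library, restriction to protein-coding genes, length and GC trends removed (mgcv 1.9.3), counts thinned to the smallest library, limma 3.58.1 on the variance-stabilized values, other pseudocounts, and each mouse left out. Values per mouse are given for the isoform pairs, the Sdh genes, Cyc1, Cycs, and in each complex the 3 lowest and 2 highest log2 fold changes and the highest level per kb of exon. Cox6b2 and the other members named with values were picked with their values in view. Members and lists were chosen with earlier results of these data known. Shared 50-base words were counted in the GENCODE transcripts, and promoters came from RefSeq on GRCm38.p6.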

Additional observations from a re-analysis of the deposited data

Results flagged for a closer look

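Among the 4 DMSO mice, 62 measures (the tested members, the isoform ratios and the marker sums) were compared with the 95% critical value of Dixon's ratio, the gap between the extreme mouse and its nearest neighbour divided by the range. For independent measures chance gives about 1 in 20, or 3.1 of 62, and 7 exceeded the critical value. The measures share the same 4 mice, so 1 mouse can move several of them together. The count of 7 is therefore no test against 3.1. Mouse 480 was the low value for Uqcrc2 (0.898), Cox6c (0.879), Atp5c1 (0.918) and Atp5j (0.838). The log2 ratio of Cox8b to Cox8a (0.928) was low in mouse 480 too. Its basal keratinocyte marker sum was high (0.910), at 31151 CPM against 18137 to 19314 CPM in the other DMSO mice. The hair follicle marker sum was high in mouse 481 (0.978). Without mouse 480, 29 members were called lower in place of 24. The cause of these values was not tested.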

How the results depend on the processing

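The direction of the members' median log2 fold change was negative in all 17 alternatives, between -0.75 and -0.54. Leaving out 1 mouse moved the count of members lower most, to between 12 and 29, and by complex to between 0 and 2 (complex II), 2 and 6 (complex III with cytochrome c), 5 and 10 (complex IV) and 5 and 11 (complex V). In these fits calls fell across the whole table as well, to 771 lower and 964 higher without mouse 478. The count of members higher was 1 with the DESeq2 Wald test and 0 in the other alternatives. Complex II had 1 lower gene with upper-quartile scaling, with length and GC trends removed, and with the DESeq2 Wald test. For 24 named members, 375 of 408 comparisons with an alternative kept their direction and side of the threshold, 14 lost and 12 gained a call, and 7 turned sign. Those 7 were Cox8a, at 0.078 with length and GC trends removed and between -0.219 and 0.032 (without mouse 480) when 1 mouse was left out, and Sdha, at -0.032 with upper-quartile scaling, -0.018 with protein-coding genes only, -0.078 with the trends removed, and between -0.098 and 0.112 when 1 mouse was left out (negative without mouse 478 or 480). The cause was not tested. Cox8b missed the threshold with the trends removed (edgeR adjusted p = 0.0625). The isoform ratios kept their sign throughout and stayed short of the threshold with other pseudocounts, thinned counts and variance-stabilized values. With 1 mouse left out, the permutation test has too few assignments to reach the threshold, so those p-values cannot decide the question. Scaling by total counts moved the share of lower genes among all calls from 48.5% to 36.7% and left 21 members lower. No paired analysis was possible because the mouse numbers are not shared between the groups. With 4 mice against 3, small changes of single subunits could not be told from the spread between mice, and levels under a few CPM, as for Atp5g2, rest on few unique reads.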
